A study of Homo sapiens with 6 samples.

Results

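The 50 genes described here encode ribosome biogenesis factors: subunits and partners of RNA polymerase I, nucleolar proteins, small nucleolar ribonucleoproteins (snoRNPs), and factors that cut, fold and assemble pre-ribosomes. They were chosen by symbol from a list of nucleolar, rRNA processing and RNA polymerase I genes. All 50 were found among the 63677 Ensembl identifiers of the count tables, and all 50 passed the filter on low counts that left 14286 tested genes. RNA was sequenced from SW480, a human colorectal adenocarcinoma line, after transduction with a lentiviral vector whose doxycycline-inducible promoter drove GFP (the control) or POU5F1B, a retrogene copy of the pluripotency factor gene POU5F1. Each group had 3 libraries, numbered as replicates 1 to 3, and both groups received 1 µg/mL doxycycline for 72 h, so the drug, the vector backbone and its drug selection were shared. The comparison asks how expression of POU5F1B changed the level of each member relative to GFP, with the level of MYC, a transcription factor known to drive ribosome production, set beside it.

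Ribosome production starts in the nucleolus, where RNA polymerase I copies the rDNA repeats into a long precursor. Small nucleolar RNAs, carried by box C/D and box H/ACA proteins, guide methylation and pseudouridylation of that precursor, and a large processome separates the small subunit from the large one. GTPases, nucleases and DEAD-box RNA helicases then remodel both particles before export, and enlarged nucleoli are a known feature of many tumours.

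Depth ranged from 10767947 to 12787637 counts per library. Levels are CPM, counts scaled to a common library size with TMM factors. The transgene checked the labels: POU5F1B was at 0.506, 0.381 and 0.0870 CPM in GFP replicates 1, 2 and 3, and at 1182, 1056 and 121 CPM in the POU5F1B replicates. Replicate 3 thus had a far lower transgene level than the other POU5F1B libraries. GFP replicate 3 also stood apart from GFP replicates 1 and 2 in single marker genes, chosen after their values were seen: EPCAM, an epithelial adhesion gene, was at 86.8, 89.4 and 519 CPM across the GFP libraries and at 320, 331 and 252 CPM across the POU5F1B libraries, whereas COL1A1, a fibroblast collagen gene, was at 142, 118 and 16.9 CPM and at 6.76, 5.56 and 9.49 CPM. Not every marker followed these. CDX2, an intestinal transcription factor gene, was at 27.7 and 19.5 CPM in GFP replicates 1 and 2. It was lower, at 16.4 and 14.6 CPM, in POU5F1B replicates 1 and 2. Its highest levels were in both replicate 3 libraries, at 33.2 CPM in GFP and above that in POU5F1B. VIL1, another epithelial marker, was also highest in GFP and POU5F1B replicate 3, at 211 and 111 CPM, and at most 42.7 CPM elsewhere. KRT8 and KRT18 were also highest in GFP and POU5F1B replicate 3, at 4250 and 4030 CPM and at 3900 and 3970 CPM. Elsewhere they were at most 3750 and 3620 CPM. EPCAM, KRT19 and CDH1 were not highest in both replicate 3 libraries. All 7 colorectal epithelial markers were detected, with a summed level of 6360 to 9580 CPM in GFP and 7920 to 8930 CPM in POU5F1B libraries. The 5 fibroblast markers summed to 27.4 to 172 and 13.4 to 22.6 CPM, with DCN at most 0.261 CPM and LUM at 0 except for 2.96 CPM in GFP replicate 3 and 0.416 CPM in POU5F1B replicate 3. The 5 leukocyte markers stayed at 1.07 to 1.82 and 1.85 to 4.25 CPM, with CD68 at 0 in all libraries, and the 3 endothelial markers found stayed at 1.22 to 6.06 and 2.67 to 6.53 CPM. Mitochondrial genes took 8.62% of counts in GFP replicate 3 and 6.95 to 7.49% elsewhere. The part of these differences in the results below was not tested, and the labels name no batch. Because the libraries are bulk RNA, fewer cells of a type and less RNA per cell cannot be told apart, and because the labels do not say that replicates came from separate cultures, p-values measure only the spread between these libraries.

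MYC was at 216, 228 and 711 CPM in GFP replicates 1, 2 and 3 and at 263, 216 and 354 CPM in the POU5F1B replicates. GFP replicate 3 was the highest of all 6 libraries, 3.21 times the mean of GFP replicates 1 and 2, and the groups overlapped. Across all libraries the log2 fold change of POU5F1B over GFP was −0.26 ± 0.47 (SE; adjusted p = 0.861, limma voom), and it was 0.28 (adjusted p = 0.365, limma voom) without GFP replicate 3. No difference in MYC between the groups was therefore detected, and its direction turned on 1 library.

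A set score summarised the members in each library as the mean over the 50 genes of log2 CPM minus that gene's mean over all 6 libraries. The score was −0.338, −0.224 and 0.336 in GFP replicates 1, 2 and 3, and 0.0341, 0.0981 and 0.0942 in the POU5F1B replicates, where the median deviation over all tested genes stayed between −0.0131 and 0.0332. The POU5F1B libraries lay close together, above GFP replicates 1 and 2 and below GFP replicate 3. The group means were −0.0753 ± 0.361 (SD, n = 3) and 0.0755 ± 0.0359 (SD, n = 3), so the difference was smaller than the spread of the GFP libraries. GFP replicate 3 had both the highest score and the highest MYC level. Among the other 5 libraries, POU5F1B replicate 2 and GFP replicate 1 had nearly the same MYC level, 216 CPM each, with scores of 0.0981 and −0.338. POU5F1B replicates 2 and 3 had nearly the same score at 216 and 354 CPM of MYC. No correlation is given over libraries of which 1 stands apart.

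**Figure D1:**
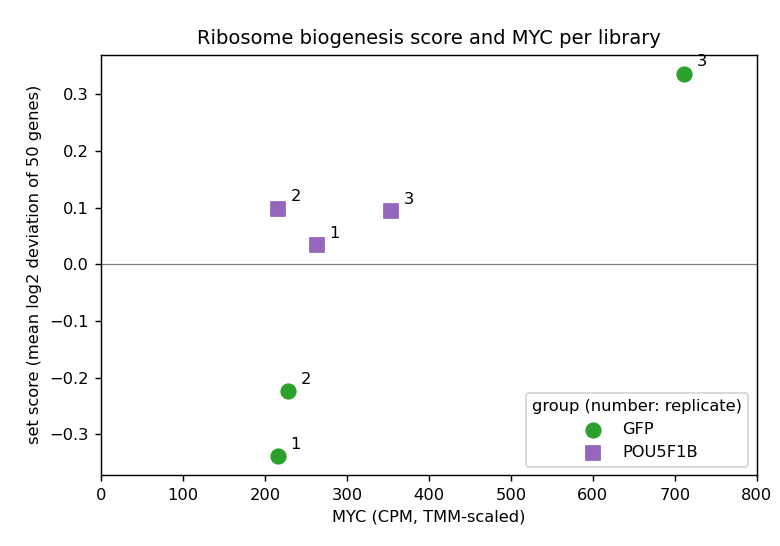
The set score of the 50 ribosome biogenesis factors (vertical axis, mean log2 deviation) against MYC (horizontal axis, CPM) in each of the 6 libraries, with circles for GFP, squares for POU5F1B and the replicate number beside each point. GFP replicate 3, at 711 CPM and 0.336, lies alone at the upper right, and the POU5F1B libraries lie above GFP replicates 1 and 2 at MYC levels of 216 to 354 CPM.

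MYC binds the E-box CACGTG, and promoter sequence is shown here because MYC is read beside the members. RefSeq promoters (GRCh38.p14 table, 250 bases upstream of the start) were found for 42 of the 50 members, and 8 of these held CACGTG, or 19.0%, beside 11.2% of the 10558 tested genes with a promoter and 7.73% of all 27305 genes of the promoter table (a gene counts where any of its promoters holds the motif). The motif is its own reverse complement, so both strands are read at once. The 8 were LYAR, DDX21, NAT10, UTP4, UTP14A, UTP20, UTP18 and NOP10. A match describes letters, not binding. For the 5 of these members whose level in every library follows below, the stretch around the motif is given 5′ to 3′ on the gene's strand, with the E-box in capitals, at its unique match on GRCh37:
LYAR: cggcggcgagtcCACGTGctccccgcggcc
DDX21: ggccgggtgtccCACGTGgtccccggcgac
NAT10: aatgcgcttgcgCACGTGctgtctacc
UTP4: agagcgcgcgcgCACGTGgggccggggc
UTP14A: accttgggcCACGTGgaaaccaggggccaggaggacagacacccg
These stretches lie at chr4:4291795-4291824 on the minus strand for LYAR, and on the plus strand at chr10:70716360-70716389 for DDX21, chr11:34127149-34127175 for NAT10, chr16:69166524-69166551 for UTP4 and chrX:129039890-129039934 for UTP14A. The motif began 64, 31, 15, 16 and 241 bases upstream of the RefSeq start, respectively. Annotated exons covered all 30 bases of the LYAR and DDX21 stretches and all 28 of UTP4. They covered 12 of 27 bases for NAT10 and 0 of 45 for UTP14A. LYAR and DDX21 each had another RefSeq promoter without the motif. Of the 8 members with the motif, LYAR, DDX21 and UTP20 were over 2-fold higher in GFP replicate 3 than the mean of GFP replicates 1 and 2, at 3.62, 3.15 and 2.16 times, where 12.3% of all tested genes were. The other 5, NAT10, UTP4, UTP14A, UTP18 and NOP10, were at 1.22 to 1.35 times. Of all 50 members, 8 were over 2-fold higher (16.0%). Among these 8, TAF1D, WDR43 and UTP15 had a promoter without the motif, and no promoter was found for NOP58 and DDX18. A link between the motif and these levels was not tested.

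With all 6 libraries, 36 members were higher and 14 lower in POU5F1B than in GFP, and 0 passed an adjusted p of 0.05 (limma voom; 0.00% of all tested genes passed). Unadjusted p was under 0.05 for 8 members, or 16.0%, beside 11.9% of all tested genes (6.07% higher and 5.82% lower). Of these 8, GAR1, POLR1A, MYBBP1A, UTP4, UTP14A, RRP12 and DDX56 were higher and FBL was lower. The quasi-likelihood test of edgeR also called 0 members, with 8 at an unadjusted p under 0.05, and DESeq2 called only GAR1, where 2.90% of the genes with an adjusted p were called. The median log2 fold change of the members was 0.19 beside −0.02 for all tested genes, with a range of −0.49 to 0.82, and 72.0% of members against 46.9% of tested genes were above 0. The groups did not overlap for 12 members (24.0%; background 19.4%, of which 10.2% higher and 9.24% lower). Of these, POLR1A, MYBBP1A, RRP9, GAR1, UTP4, UTP14A, BYSL, RRP12, DDX47 and DDX56 were higher in every POU5F1B library, and UBTF and FBL were lower.

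GFP replicate 3 set most of the spread within a group. It was the highest of the 6 libraries for 33 members (66.0%, background 34.6%), whereas GFP replicates 1 and 2 were highest for 0 (background 19.5% and 10.7%). For 39 members (78.0%; background 24.9%) every POU5F1B library was above both GFP replicates 1 and 2, and for UBTF and FBL every one was below both (background 23.9%). Leaving out GFP replicate 3, 20 members were called higher and 0 lower (40.0% called; background 12.1%, of which 5.07% higher and 7.02% lower). Sample quality weights in the voom fit, which give less weight to libraries far from the fit, called 27 members (54.0%; background 27.8%).

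With replicates 1 and 2 only, a choice made with earlier results known and which leaves out the POU5F1B library of low transgene level as well, 29 members rose and 1, FBL, fell (60.0%; background 29.7%, of which 14.1% higher and 15.5% lower, limma voom, adjusted p under 0.05). The median log2 fold change was 0.34 beside −0.01 for all tested genes, and 45 of 50 members were above 0 (background 49.5%). GAR1 alone exceeded 2-fold (background 8.36%). The 20 members called without GFP replicate 3 were all among these 29. Both fits share replicates 1 and 2 of each group, so this overlap adds no independent support. In the remaining pair, POU5F1B replicate 3 over GFP replicate 3, which has no replicate and no test, 34 members were lower (68.0%; background 49.5%) and 16 were higher (background 50.5%), with a median log2 difference of −0.08. NOP58, DDX21, TAF1D, LYAR and DDX10 were over 2-fold lower (background 10.5%), and DDX47 was over 2-fold higher (background 5.78%). Of the 29 that rose in replicates 1 and 2, 8 were higher and 21 lower in this pair.

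**Figure D2:**
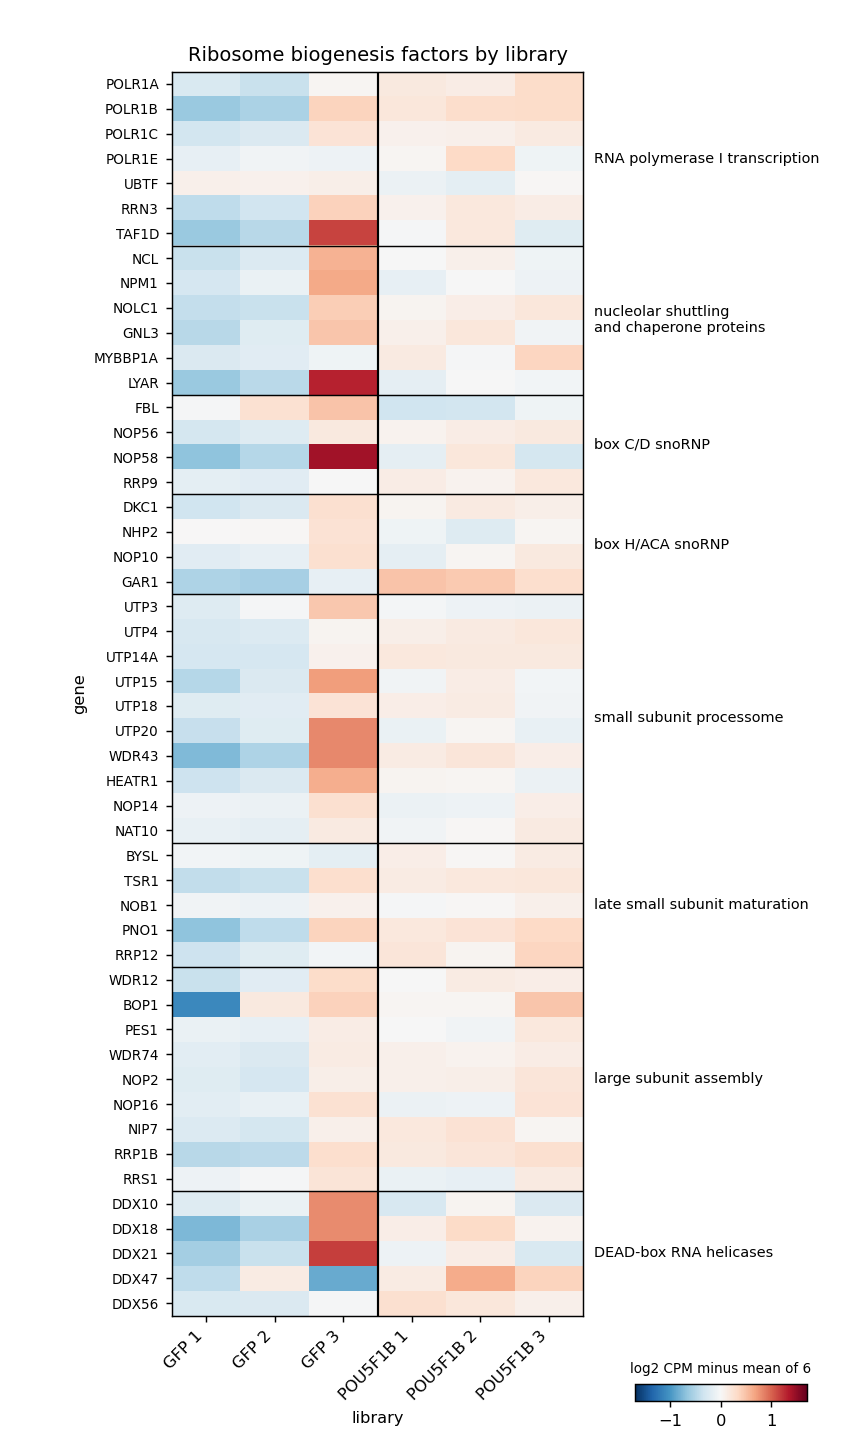
Log2 CPM of each of the 50 members minus its mean over the 6 libraries (colour scale), with genes in rows grouped by role and libraries in columns. GFP replicates 1 and 2 are mostly blue, GFP replicate 3 is the reddest column for 33 members, and the POU5F1B columns are paler, in between.

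The 7 members of RNA polymerase I transcription split into 4 that rose in replicates 1 and 2 (POLR1A, POLR1B, RRN3 and TAF1D) and 3 that were not called (POLR1C, POLR1E and UBTF). POLR1A (ENSG00000068654, chr2:86247339-86333278, minus strand, GRCh37), the largest, catalytic subunit, was at 133, 123 and 164 CPM in GFP replicates 1 to 3 and at 180, 173 and 197 CPM in the POU5F1B replicates. Every POU5F1B library was above every GFP library, yet the log2 fold change of 0.40 ± 0.14 (SE) had an adjusted p of 0.345 (limma voom). POLR1B, the second-largest subunit, was at 79.3, 84.4 and 159 CPM and at 140, 151 and 152 CPM. The groups overlapped only through GFP replicate 3, the highest library. Its log2 fold change was 0.54 ± 0.26 (SE; adjusted p = 0.473, limma voom) over all libraries and 0.82 (adjusted p = 3.7e-05, limma voom) in replicates 1 and 2. TAF1D, a subunit of the promoter selectivity factor SL1, was at 69.4, 77.1 and 239 CPM in GFP and at 106, 121 and 93.3 CPM in POU5F1B libraries. Here GFP replicate 3 was over 2-fold above every POU5F1B library except replicate 2, and the log2 difference ran from 0.62 in replicates 1 and 2 to −1.36 in replicate 3. UBTF, which opens rDNA chromatin, went the other way, at 147, 146 and 149 CPM in GFP and 130, 124 and 142 CPM in POU5F1B libraries, without overlap (log2 fold change −0.16, adjusted p = 0.577, limma voom).

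Of the 6 nucleolar shuttling and chaperone proteins, 5 (NCL, NOLC1, GNL3, MYBBP1A and LYAR) rose in replicates 1 and 2. NPM1, the nucleolar chaperone nucleophosmin, was at 1509, 1701 and 2882 CPM in GFP and at 1681, 1841 and 1735 CPM in POU5F1B libraries. GFP replicate 3 was the highest library, and the others overlapped. Its log2 fold change was −0.15 (adjusted p = 0.831, limma voom), and reads shared with its processed pseudogenes make the counts of uniquely mapped reads uncertain. MYBBP1A, a nucleolar protein first known as a MYB partner, was at 165, 170 and 186 CPM and at 218, 193 and 252 CPM. Its groups did not overlap, and its log2 fold change was 0.34 ± 0.13 (SE; adjusted p = 0.372, limma voom). NOLC1, a snoRNP chaperone, was at 335, 341 and 590 CPM in GFP and at 456, 477 and 507 CPM in POU5F1B libraries, again with GFP replicate 3 on top. LYAR, a zinc-finger protein of pre-rRNA processing, was at 36.1, 41.0 and 140 CPM and at 50.4, 56.2 and 54.5 CPM. GFP replicate 3 was 3.62 times the mean of GFP replicates 1 and 2, and the fold change of LYAR changed sign with it, from 0.45 in replicates 1 and 2 to −1.35 in replicate 3.

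The snoRNP proteins held the largest rise and the only fall among the called members. GAR1 (ENSG00000109534, chr4:110736666-110745896, plus strand, GRCh37), a core protein of the box H/ACA particles that make pseudouridine, was at 34.96, 34.1 and 45.9 CPM in GFP and at 70.9, 69.0 and 61.5 CPM in POU5F1B libraries. No library of one group reached the other. The means were 38.3 ± 6.54 and 67.1 ± 4.96 CPM (SD, n = 3), and the log2 fold change was 0.82 ± 0.16 (SE; adjusted p = 0.195, limma voom), or 1.01 (adjusted p = 2.8e-05, limma voom) in replicates 1 and 2. Its partners in the same particle did not share this size of difference. DKC1, the pseudouridine synthase, was at 251, 268 and 382 CPM and at 328, 354 and 340 CPM. It rose by 0.38 in log2 in replicates 1 and 2. NHP2 was at 133, 134 and 157 CPM in GFP and at 126, 114 and 135 CPM in POU5F1B libraries, with overlapping groups (log2 fold change −0.17, adjusted p = 0.615, limma voom); the gene RMND5B overlaps 48.2% of its exon bases on the other strand, and the strand setting of the counting is not given in the sources used here.

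FBL (ENSG00000105202, chr19:40325098-40337019, minus strand, GRCh37), the fibrillarin methyltransferase of box C/D particles, was at 383, 466 and 545 CPM in GFP and at 307, 313 and 368 CPM in POU5F1B libraries. It was the member with the most negative log2 fold change, −0.49 ± 0.16 (SE; adjusted p = 0.317, limma voom), and POU5F1B was lower in each of the replicates. In replicates 1 and 2 it fell by 0.46 on the log2 scale (adjusted p = 0.0022, limma voom). The structural partner NOP58 moved otherwise, at 50.04, 57.9 and 218 CPM in GFP and 72.7, 92.6 and 65.7 CPM in POU5F1B libraries. GFP replicate 3 was 4.03 times the mean of GFP replicates 1 and 2, the largest such ratio among the members. RRP9, specific to the U3 particle, was at 50.4, 49.5 and 56.6 CPM and at 61.97, 59.3 and 64.2 CPM, without overlap but with an adjusted p of 0.463 (limma voom).

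**Figure D3:**
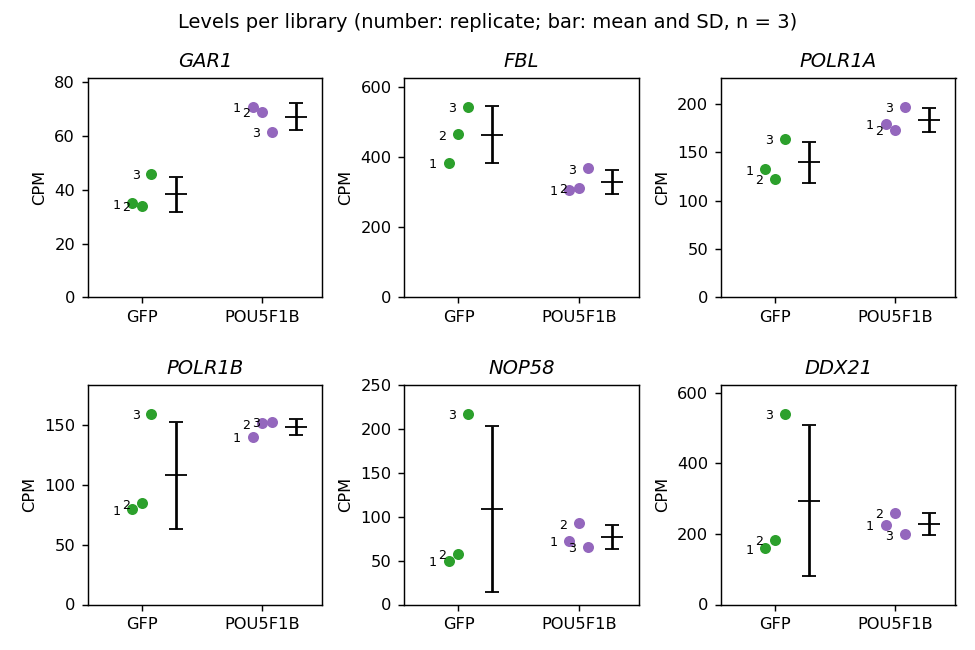
CPM in each library for GAR1, FBL, POLR1A, POLR1B, NOP58 and DDX21, with GFP and POU5F1B on the horizontal axis, replicate numbers beside the points, and the bar giving the mean and SD of 3 libraries. GAR1 and POLR1A are higher and FBL lower in every POU5F1B library, while GFP replicate 3 lies above all POU5F1B libraries for POLR1B, NOP58 and DDX21.

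Among the 10 small subunit processome members, 5 (UTP4, UTP14A, UTP18, WDR43 and HEATR1) rose in replicates 1 and 2, and 5 (UTP3, UTP15, UTP20, NOP14 and NAT10) were not called. Genes on the other strand overlap 24.8% of the exon bases of HEATR1. UTP4, of the first subcomplex to join the precursor, was at 108, 110 and 134 CPM in GFP and at 138, 144 and 148 CPM in POU5F1B libraries. The groups did not overlap, with a log2 fold change of 0.30 ± 0.12 (SE; adjusted p = 0.409, limma voom). UTP14A, which activates the helicase that releases U3, was at 110, 110 and 141 CPM and at 152, 151 and 150 CPM, also without overlap; reads shared with its copy UTP14C are uncertain. NAT10, the acetyltransferase of 18S rRNA, was at 197, 193 and 238 CPM and at 206, 217 and 239 CPM, and its groups overlapped. WDR43 and UTP20, with UTP15, were over 2-fold higher in GFP replicate 3 than in GFP replicates 1 and 2.

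In late small subunit maturation, all 5 members had a positive log2 fold change over the 6 libraries, with a median of 0.35, and TSR1, PNO1 and RRP12 rose in replicates 1 and 2. RRP12, an export factor, was at 70.7, 78.0 and 87.6 CPM in GFP and at 104, 93.4 and 116 CPM in POU5F1B libraries. Its lowest POU5F1B library was above its highest GFP library (log2 fold change 0.41 ± 0.14 SE, adjusted p = 0.340, limma voom). PNO1, which holds the assembling 40S particle with the nuclease NOB1, was at 57.0, 68.0 and 119 CPM and at 104, 108 and 116 CPM. TSR1, a GTPase-like assembly factor, was at 188, 194 and 308 CPM and at 279, 287 and 290 CPM. Genes on the other strand overlap 27.0% of the exon bases of TSR1 and 10.5% of those of PNO1. For both, the POU5F1B libraries stayed between GFP replicates 1 and 2 and GFP replicate 3.

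Of the 9 large subunit members, 8 had a positive fold change over the 6 libraries, with a median log2 value of 0.19. In replicates 1 and 2, WDR12, WDR74, NOP2, NIP7 and RRP1B rose. Genes on the other strand overlap 32.8% of the exon bases of WDR74. RRP1B was at 138, 139 and 231 CPM in GFP and at 213, 219 and 230 CPM in POU5F1B libraries, so that GFP replicate 3 lay with the POU5F1B libraries. NOP2, a methyltransferase of 28S rRNA, was at 174, 165 and 215 CPM and at 213, 214 and 230 CPM. NIP7 was at 57.9, 55.1 and 72.0 CPM and at 76.8, 80.9 and 69.6 CPM. For NOP2 and NIP7 the groups overlapped through GFP replicate 3 alone. BOP1 and PES1, which form the PeBoW complex with WDR12, were not called; BOP1 was counted at only 5.5 to 16.6 CPM.

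The 5 DEAD-box helicases had log2 fold changes from −0.31 to 0.79, the upper end being DDX47, which had few counts. DDX56 was at 128, 129 and 150 CPM in GFP and at 184, 174 and 162 CPM in POU5F1B libraries, without overlap (log2 fold change 0.36 ± 0.12 SE, adjusted p = 0.324, limma voom). DDX21, which couples RNA polymerase I to processing, was at 160, 184 and 541 CPM and at 226, 260 and 199 CPM. GFP replicate 3 was 3.15 times the mean of GFP replicates 1 and 2 and more than 2-fold above each POU5F1B library. DDX18 rose in replicates 1 and 2 by 0.86 in log2, and DDX10 was not called. DDX47 was at 1.69, 2.59 and 1.22 CPM and at 2.60, 3.71 and 3.08 CPM, so its groups were nearly touching, and its value is uncertain because APOLD1 overlaps 99.7% of its exon bases on the same strand.

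**Figure D4:**
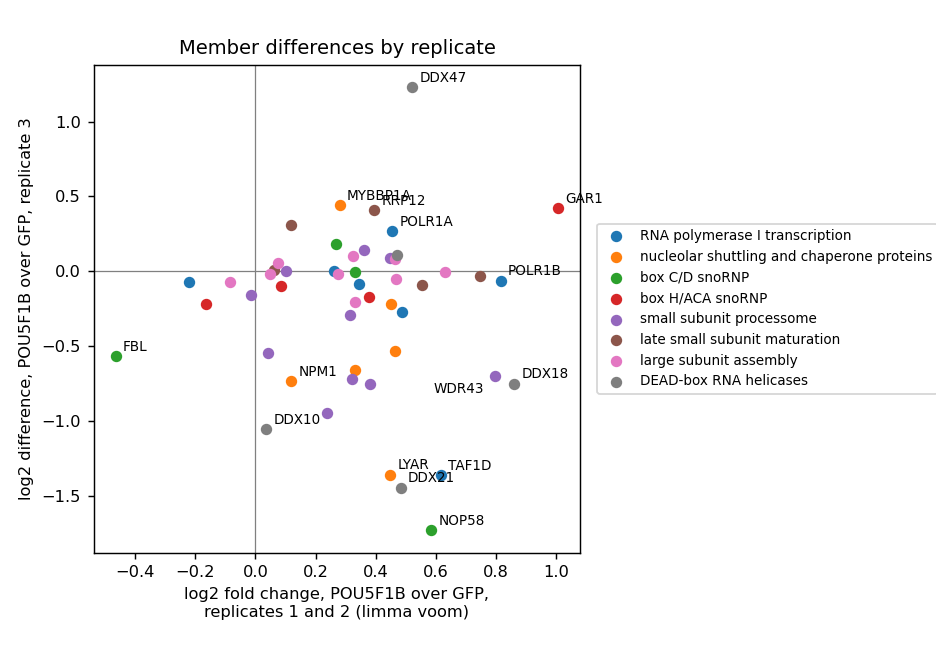
Each point is 1 of the 50 members, coloured by role, with the log2 fold change of POU5F1B over GFP in replicates 1 and 2 on the horizontal axis and the log2 difference between the replicate 3 libraries on the vertical axis. Most points lie right of 0 and below 0, GAR1 and POLR1A are positive on both axes, FBL is negative on both, and NOP58, DDX21, TAF1D and LYAR lie lowest.

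The members that were over 2-fold higher in GFP replicate 3 than in GFP replicates 1 and 2 were NOP58, LYAR, TAF1D, DDX21, DDX18, WDR43, UTP20 and UTP15 (16.0%; background 12.3%), and 0 members were over 2-fold lower (background 9.65%). These 8 had a median GC content of 40.0% in their canonical transcripts, beside 49.4% in the 41 other members with a value and 49.2% over tested genes. Across the 49 members with a value, Pearson's r between GC content and the log2 excess of GFP replicate 3 was −0.668, and across 13906 tested genes it was −0.383. These describe genes within the same libraries, which are not independent replicates. After GC content and length were fitted out in each library, the median log2 excess of the members was 0.54, against 0.43 before, and 3 members were over 2-fold, against 8 before.

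**Figure D5:**
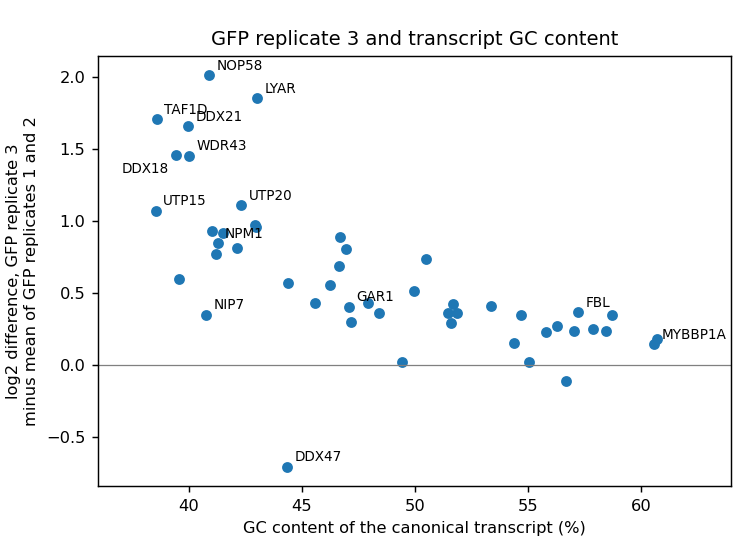
GC content of the canonical transcript (horizontal axis, %) against the log2 difference of GFP replicate 3 from the mean of GFP replicates 1 and 2 (vertical axis), 1 point per member for the 49 with a value. The largest differences, NOP58, LYAR, TAF1D and DDX21, lie at 38.6 to 43.05% GC, and r across members was −0.668.

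Per kilobase of canonical transcript, averaged over the 6 libraries, NPM1 was the most abundant member at 1433 CPM per kb, followed by FBL at 353, NCL at 331, NOP56 at 198 and NHP2 at 171 CPM per kb. The lowest were DDX47 at 1.37, UTP15 at 5.99 and UTP20 at 10.0 CPM per kb. The rank of DDX47 is uncertain because of its overlap with APOLD1 on the same strand. POLR1A was at 12.95 CPM per kb, and BOP1 had no length to use.

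Other lists of the pathway, chosen with earlier results known, were counted in the same fits, in which 0 genes were called over all 6 libraries. Of 9 other RNA polymerase I factors, 2 rose and 0 fell in replicates 1 and 2 (background 14.1% higher and 15.5% lower). Among 39 tested small subunit factors 10 rose and 2 fell, and among 46 large subunit factors 15 rose and 1 fell, beside the same background. With all 6 libraries, 5, 22 and 23 genes of these lists, in that order, were higher and 4, 17 and 23 lower. Their median log2 fold changes were 0.0356, 0.0036 and −0.00778, beside 0.187 for the members. Over all libraries the smallest p-values in these lists belonged to IMP4 (log2 fold change 0.55 ± 0.11 SE, adjusted p = 0.207, limma voom), a U3 component, and URB1 (0.47 ± 0.10 SE, adjusted p = 0.207, limma voom), a large subunit assembly factor. Of 71 cytosolic ribosomal proteins, 8 were called higher and 11 lower in replicates 1 and 2, near the background of 14.1% and 15.5%, with a median log2 fold change of 0.02. Over all libraries, 11 of 12 snoRNA host genes were higher (background 46.9%). An unadjusted p under 0.05 was reached by 5 of them (background 6.07% higher), led by SNHG15 (0.64 ± 0.13 SE, adjusted p = 0.207, limma voom). The gene next to the leading one in each of these lists was POLR1H (0.21, behind TBP at 0.18), PWP2 (0.57), URB2 (0.34), RPL28 (−0.40) and SNHG5 (0.42), with adjusted p-values of 0.285 to 0.705 (limma voom).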

How the data were processed

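The authors deposited whole-number read counts per gene, 1 table per library, from TruSeq Stranded mRNA libraries aligned to hg19 with HISAT2 and counted by featureCounts on uniquely mapped reads. The annotation release and strand setting are not given in the sources used here, so overlapping and duplicated genes are uncertain. Groups and replicate numbers came from the titles. Symbols were found for 87.4% of identifiers.

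From these counts, genes were filtered (filterByExpr, edgeR 4.0.16), scaled by TMM and tested with limma 3.58.1 voom in R 4.3.3, the test that the study's methods name, here two-sided and unblocked, with p-values adjusted by Benjamini-Hochberg across 14286 genes. A call is an adjusted p under 0.05, without the 2-fold limit that the methods add. Log2 CPM used a prior count of 2. DESeq2 1.42.0, edgeR, scalings, filters and left-out libraries were alternatives, and the GC content and length correction was added after seeing the data. The labels do not say whether replicate numbers pair the libraries. Correlations of deviations from the group means, between libraries of the same number, were 0.242, 0.0883 and 0.165 for replicates 1 to 3. Whether replicate number had a shared effect was not tested. Coordinates are 1-based GRCh37. Only the voom test was run on simulated counts. Those held larger changes than the members showed and no library that stood apart, so this check does not cover that setting.

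Members and lists were chosen with earlier results of these data known. Every library value was given for MYC, POU5F1B, POLR1A and POLR1B, for the 2 members with the smallest p and the most abundant one in each of 8 roles, and for the 5 with the largest difference in replicate 3. WDR43, DDX18, UBTF, GNL3 and others outside this rule were named after their values were seen.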

Additional observations from a re-analysis of the deposited data

How the results depend on the processing

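The number of tested genes past an adjusted p of 0.05 and 2-fold was 0 with all libraries and limma voom, 232 with DESeq2, 1077 with sample quality weights, 4 with genes of at least 1 count, 1 with the GC content and length correction (chosen after seeing the data) and 1194 with replicates 1 and 2 only. Members called, with no limit on fold, numbered 0, but 1 with DESeq2, 27 with quality weights and 30 with replicates 1 and 2. Under that rule 2.90%, 27.8% and 29.7% of all tested genes were called in these 3 settings, in that order. Members at an unadjusted p under 0.05 numbered 8 (background 11.9%). They numbered 33 with quality weights, 36 with replicates 1 and 2, and 13 each with upper quartile, total counts and at least 10 counts. For these other settings the share of all tested genes at that limit was not counted. Leaving out 1 library gave 0 to 595 genes past both limits, 0 to 20 members called and 1 to 33 at an unadjusted p under 0.05. The highest values were without GFP replicate 3, where 12.1% of all tested genes were called with no limit on fold. The lowest count of 1 was without POU5F1B replicate 1, and 5 genes were past both limits without POU5F1B replicate 3. The replicate block, for which the labels state no pairing, called 1 gene and 0 members.

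The direction turned for MYC and for 5 of 25 named members. With quality weights the log2 fold changes were 0.18 for MYC, 0.37 for DDX21, 0.38 for LYAR, 0.43 for NOP58, 0.0708 for NPM1 and 0.51 for TAF1D. With replicates 1 and 2 they were 0.0938, 0.48, 0.45, 0.58, 0.12 and 0.62 in that order. TAF1D was 0.0158 with upper quartile, 0.0061 with total counts and 0.14 with the GC content and length correction, where DDX21 was 0.057. Leaving out 1 library moved MYC from −0.56 to 0.28, DDX21 from −0.47 to 0.39, LYAR from −0.48 to 0.46, NOP58 from −0.55 to 0.48, NPM1 from −0.34 to 0.12 and TAF1D from −0.34 to 0.53, with the highest each without GFP replicate 3 and the lowest without GFP replicate 1. The cause was not tested. Of the values of named members, 357 kept direction and side of the threshold, 48 were called in addition and 20 reversed. The set score moved by less than its pooled SD of 0.256 in 30 of 30 values. That SD came mostly from the GFP libraries (SD 0.361, against 0.0359 for POU5F1B). It exceeds the difference between the group means (−0.0753 and 0.0755), so this check could hardly fail. Low counts limit DDX47 and BOP1 most. Read assignment may add to this, as APOLD1 overlaps DDX47 on the same strand and BOP1 has no canonical transcript length, which was not tested.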

Other observations

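Among genes around the pathway, 11 of 12 MYC network genes were tested, 4 higher and 7 lower over all libraries. MXD4, a MAX partner that opposes MYC, was at 20.2, 15.9 and 11.4 CPM in GFP replicates 1, 2 and 3 and at 7.79, 4.91 and 9.91 CPM in the POU5F1B replicates, so every POU5F1B library was below every GFP library (log2 fold change −1.08, adjusted p = 0.305, limma voom). MXD3, of the same family, was at 22.0, 16.6 and 8.70 CPM and at 10.2, 6.30 and 9.41 CPM, with overlap through GFP replicate 3.

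The 10 p53 targets of the nucleolar stress response were divided, 5 higher and 5 lower, with 0 at an unadjusted p under 0.05. CDKN1A, the cell cycle inhibitor p21, was at 80.5, 67.7 and 40.6 CPM in GFP and at 93.3, 81.9 and 75.6 CPM in POU5F1B libraries, with overlapping groups (log2 fold change 0.46, adjusted p = 0.518, limma voom). BBC3, a pro-apoptotic BH3 gene, was at 5.81, 6.02 and 6.27 CPM and at 5.11, 4.17 and 4.58 CPM, without overlap (log2 fold change −0.38, adjusted p = 0.510, limma voom). Among ribosomal proteins, RPL24 was at 475, 502 and 502 CPM in GFP and at 362, 403 and 401 CPM in POU5F1B libraries (log2 fold change −0.35, adjusted p = 0.270, limma voom), also without overlap.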
